A study of Drosophila melanogaster with 18 samples.

Results

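Of the 16680 genes in a table of bulk RNA-seq counts from early Drosophila melanogaster embryos, 95 were higher than in wild type at both stages sampled, in E(z)-KD as well as CBP-KD. A gene was taken when its mean level in each knockdown was at least 1 CPM (a gene's counts divided by all counts of its library, times 1000000) and at least 2 times the mean of wild type, before cycle 9 and again at cycle 14. The genes were chosen by these 4 comparisons with wild type, so their size is given as a description. Calls of the 95 in these 4 comparisons, where given below, follow from the choice and test nothing. The comparisons that the choice did not use were E(z)-KD against CBP-KD and cycle 14 against before cycle 9.

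The study asked what happens to early development when the enzymes that write the opposing marks on H3K27 are depleted from the egg. There were 3 biological replicates of each of 3 genotypes at each of 2 stages, 18 libraries in 6 groups. The wild type (WT) was a control line carrying the attP2 landing site with no shRNA. E(z)-KD embryos carried a UAS-shRNA against E(z) and CBP-KD embryos one against nejire (nej, the gene for CBP), both placed at attP2, and the mothers of both carried the same maternal Gal4 driver, which is active in the female germline and so removes the product loaded into the egg. F1 females were mated to their brothers, and the eggs, laid within 1 h, were staged by hand. The library names give the driver cross for both knockdowns and a single line for WT. The 6 groups include no driver cross without one of these shRNAs, so driver, cross and stock background cannot be told apart from the depletion in any comparison with WT. The shRNA lines of the knockdowns also differ. In E(z)-KD against CBP-KD, the background of the lines therefore cannot be told apart from the depletions either.

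E(z) is the catalytic subunit of the Polycomb complex that trimethylates H3K27, and CBP acetylates the same residue. Before cycle 9 the embryo lives almost wholly on RNA that the mother made during oogenesis, and the main wave of zygotic genome activation (ZGA) comes at cycle 14. RNA measured before cycle 9 is therefore mostly maternal, whereas at cycle 14 it is a mixture of maternal RNA that has not been cleared and new zygotic RNA. The 95 genes span many functions. They include germline piRNA factors, a chromatin acetyltransferase, glutathione transferases and other detoxification enzymes, capsid proteins of retrotransposon origin, membrane and signalling proteins known from neurons and glia, and 47 genes that had no other name than a CG number in the table.

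The libraries held 6243486 to 18262569 counts, the lowest being WT cycle 14 replicate 1 and the next 10523097. The targets checked the labels: before cycle 9, E(z) was at 100.3 to 107 CPM in WT and at 0.0568 to 0.271 CPM in E(z)-KD, and nej was at 1084 to 1209 CPM in WT and 218 to 276 CPM in CBP-KD. At cycle 14, E(z) was at 31.5 to 35.1 CPM in WT and 3.56 to 5.41 CPM in E(z)-KD, and nej at 1515 to 2191 CPM in WT and 556 to 673 CPM in CBP-KD. E(z) was also lower in CBP-KD (7.32 to 15.3 CPM) than in WT at that stage. The 21 follicle cell and egg shell markers summed to at most 3.98 CPM in any library, and 5 of them were at 0 everywhere. The 51 germ layer markers found in the table summed to 2294 to 2380 CPM in all 9 libraries before cycle 9, and at cycle 14 to 8106 to 8555 CPM in WT, 4889 to 5259 CPM in E(z)-KD and 2480 to 2988 CPM in CBP-KD. Before cycle 9, 7 of the 51 were nevertheless called higher and 1 lower in E(z)-KD, while CBP-KD had 20 higher and 3 lower. The 5 pole cell RNAs (nos, vas, gcl, pgc and osk) summed at cycle 14 to 252 to 273 CPM in WT, 583 to 674 CPM in E(z)-KD and 649 to 804 CPM in CBP-KD. Both the pole cell RNAs and the germ layer markers thus differed between the genotypes at cycle 14. Their part in the levels below was not tested. In bulk RNA, fewer cells of a kind and less RNA per cell cannot be told apart.

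Summed over the 95 genes, WT libraries held 1604 to 1665 CPM before cycle 9 and 1202 to 1337 CPM at cycle 14. E(z)-KD libraries held 7382 to 8163 and 6128 to 6222 CPM, and CBP-KD libraries 5121 to 5735 and 4200 to 4920 CPM. E(z)-KD was thus the highest group and CBP-KD lay between it and WT at both stages, with no overlap. That WT was the lowest follows from the choice of the genes. The median ratio of the means to WT was 9.59 in E(z)-KD and 4.38 for CBP-KD before cycle 9, and 7.83 and 4.53 at cycle 14. Over the 8275 genes with at least 1 CPM in any group these medians were 0.966, 0.981, 0.985 and 1.04. In WT most of the genes were weakly expressed. Per kilobase of exon, the median level of the 95 was 0.539 CPM in WT before cycle 9 against 22.9 CPM for all genes tested, and it was 10.9 CPM in E(z)-KD and 5.97 CPM in CBP-KD. At cycle 14 the medians of the 95 were 0.761 CPM in WT, 6.15 CPM in E(z)-KD and 4.19 CPM in CBP-KD.

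**Figure D1:**
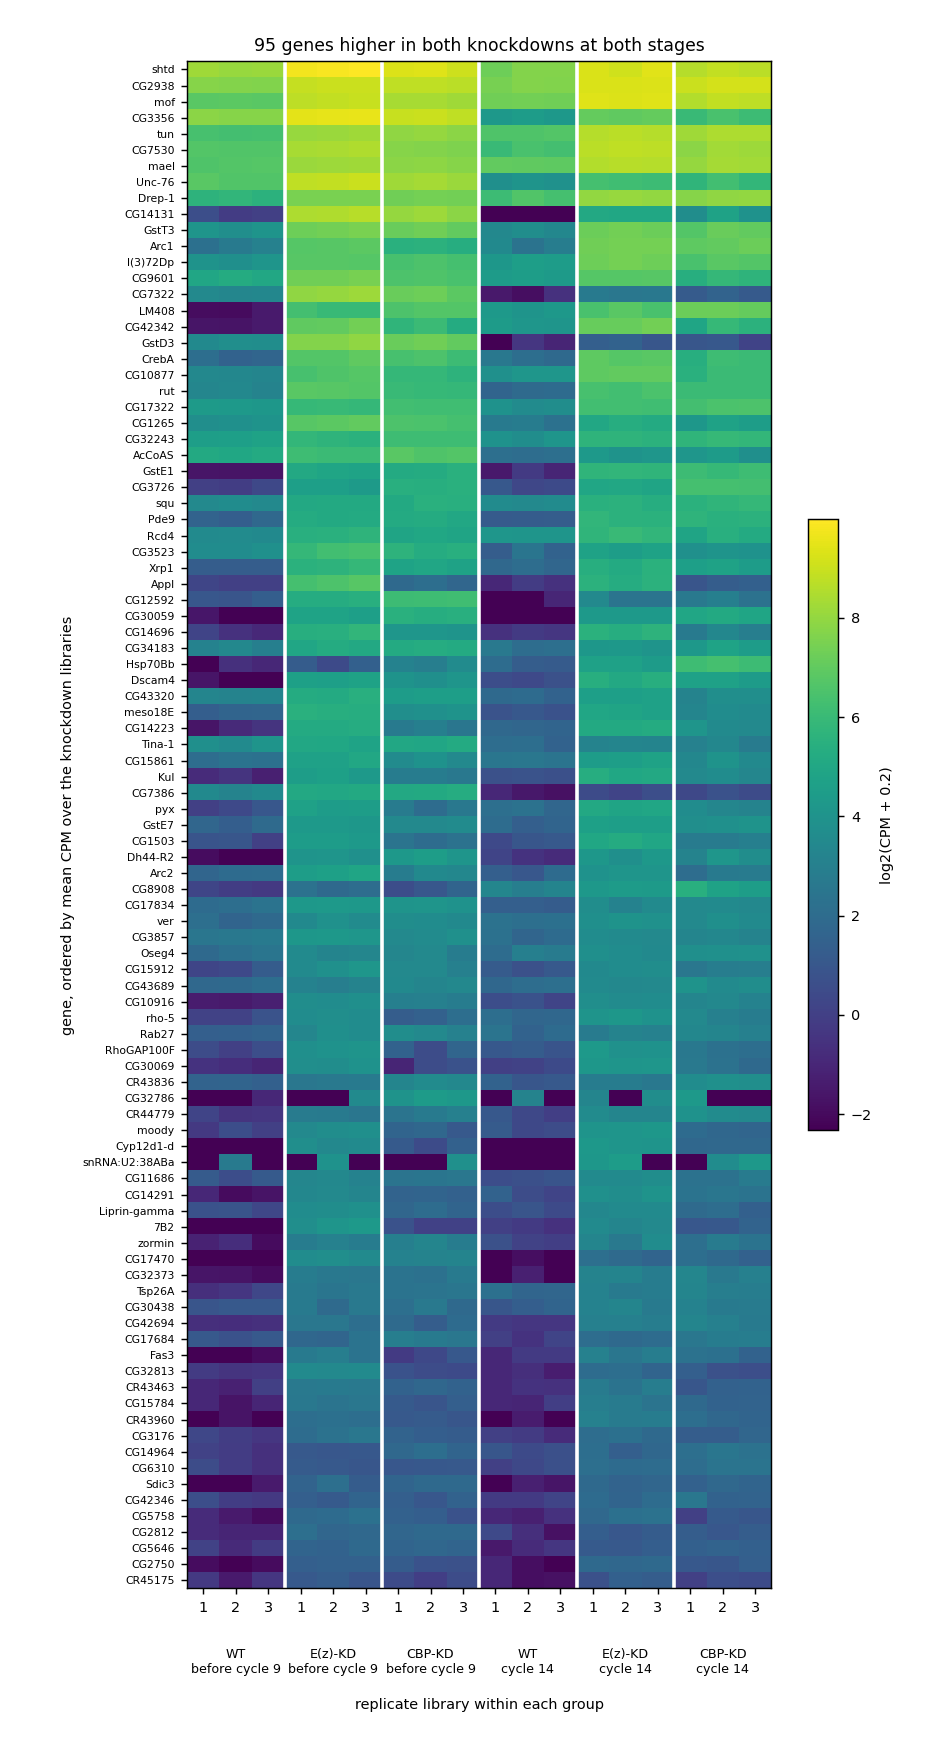
Level of each of the 95 genes (rows, from the highest to the lowest mean CPM over the knockdown libraries) in each of the 18 libraries (columns, 3 replicates per group), as log2(CPM + 0.2). The WT columns are darker than the knockdown columns of the same stage, and CG32786 and snRNA:U2:38ABa switch between high values and 0 from library to library within a group.

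In 91 of the 95 genes every knockdown library lay above every WT library of its stage in all 4 comparisons. The fit across all genes (edgeR quasi-likelihood, Benjamini-Hochberg adjusted p under 0.05 and a fold change of at least 2) called 93 of the 95 higher in E(z)-KD before cycle 9, where 7.44% of all 8467 genes tested were called higher, 93 in CBP-KD before cycle 9 (7.51% of all), 92 in E(z)-KD at cycle 14 (11.3%) and 93 in CBP-KD at cycle 14 (12.0%). These counts, and that of the 91 genes without overlap, follow from the choice of the genes. How many of all genes tested lay above WT without overlap was not computed. The opposite choice, WT at least 2 times both knockdowns at both stages, took 51 genes. Just inside the 2-fold limit lay AcCoAS (smallest ratio 2.003), CG32243 (2.024) and Oseg4 (2.024), and just outside it Rpt3R (1.994), CG10732 (1.992) and CG9503 (1.956).

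The exceptions were CG30069 and RhoGAP100F, which overlapped WT in CBP-KD before cycle 9 only, and CG32786 and snRNA:U2:38ABa. CG32786, which lies beside CG2938 and is also named Gem4b, stood at 0, 0 and 11.5 CPM in E(z)-KD before cycle 9, at 15.6, 21.2 and 18.4 CPM in CBP-KD and, at cycle 14, at 0, 8.97 and 0 CPM in WT and 19.2, 0 and 0 CPM in CBP-KD. snRNA:U2:38ABa, a copy of the U2 spliceosomal RNA, stood at 0, 6.37 and 0 CPM in WT and 0, 15.4 and 0 CPM in E(z)-KD before cycle 9. Both belong to families of near-identical copies, their counts were not whole in some libraries, and their levels are uncertain. In all, 14 of the 95 genes had counts that were not whole in at least 1 library, as happens when reads that fit several genes are divided. The others were squ, CG3176, CG12592, Hsp70Bb, Sdic3, CR43960, CG30059, rho-5, Cyp12d1-d, Dscam4, CR43836 and Oseg4.

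Several of the genes with the most reads, shtd, mof, mael and CG2938 among them, were already well expressed in WT and exceeded it by a few fold in the knockdowns. shtd encodes the largest subunit of the anaphase-promoting complex, the ubiquitin ligase that drives exit from mitosis. It stood before cycle 9 at 299.6, 271 and 276 CPM in WT, 883, 942 and 1012 CPM in E(z)-KD and 649, 671 and 522 CPM in CBP-KD. At cycle 14 it stood at 152, 207 and 207 CPM in WT, 629, 547 and 685 CPM in E(z)-KD and 391.6, 468 and 425 CPM in CBP-KD. The 3 genotypes did not overlap at either stage, and the ratio of means to WT was 3.35 in E(z)-KD and 2.18 for CBP-KD before cycle 9.

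mof encodes the acetyltransferase that places H4K16ac and works in male dosage compensation. Before cycle 9 it was at 113, 118 and 115.4 CPM in WT, 439, 457 and 500.2 CPM in E(z)-KD and 328, 328 and 301 CPM in CBP-KD, and at cycle 14 at 158, 162 and 158 CPM in WT, 660.0, 650.3 and 668 CPM in E(z)-KD and 384, 458 and 439 CPM in CBP-KD. Its ratios to WT were 4.03 and 4.14 in E(z)-KD and 2.76 and 2.68 in CBP-KD, so each knockdown kept nearly the same ratio at both stages. mof was the highest of the 95 per kilobase in E(z)-KD at cycle 14, at 219 CPM per kilobase.

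The piRNA pathway silences transposons in the germline, and 2 of its factors were in the set. mael, which acts in nuclear silencing with Piwi, was at 97.2, 102 and 106 CPM in WT before cycle 9, 278, 288 and 298 CPM in E(z)-KD and 228, 239 and 215 CPM in CBP-KD. squ, which encodes a nuage protein, was at 11.04, 12.5 and 10.9 CPM in WT, 33.8, 34.98 and 35.9 CPM in E(z)-KD and 35.2, 44.0 and 42.9 CPM in CBP-KD, with CBP-KD the higher knockdown, and its counts were not whole in nearly all libraries. None of the 12 small RNA silencing genes on a separate list (Dcr-1, Dcr-2, AGO1, AGO2, r2d2, loqs, piwi, aub, AGO3, vret, spn-E and qin) was in the set. All 12 were tested, and none was called in either direction in any of the 4 comparisons with WT. The list was made without mael and squ, so it is not a contrast with them.

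Unc-76, which links kinesin to its cargo in axons, was called lower at cycle 14 than before cycle 9 in every genotype. It was at 115.0, 100.0 and 98.8 CPM in WT, 453, 462 and 506 CPM in E(z)-KD and 305, 319.6 and 279 CPM in CBP-KD before cycle 9. At cycle 14 it was at 13.8, 16.6 and 14.7 CPM in WT, 81.6, 73.4 and 68.8 CPM in E(z)-KD and 52.3, 76.2 and 56.8 CPM in CBP-KD. CG3356 went the same way, from 217 ± 9.59 to 20.1 ± 2.07 CPM (mean ± SD, n = 3) in WT, from 741 ± 29.9 to 131 ± 5.47 CPM in E(z)-KD and from 480.4 ± 32.9 to 73.3 ± 11.2 CPM in CBP-KD. The groups of the 3 genotypes stayed apart at each stage in CG3356, while for Unc-76 at cycle 14 the highest CBP-KD library lay within the E(z)-KD libraries.

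Drep-1 encodes the inhibitory partner of the caspase-activated DNase. It was at 49.9, 55.0 and 48.6 CPM in WT, 182, 183 and 184 CPM in E(z)-KD and 161, 173 and 165 CPM in CBP-KD before cycle 9, with the knockdowns close to each other and far from WT. Among the less characterised genes, CG2938 was at 207 ± 4.80 CPM in WT, 504 ± 20.9 CPM in E(z)-KD and 437 ± 21.8 CPM in CBP-KD before cycle 9. tun was at 81.8 ± 1.86 CPM in WT, 284 ± 16.5 CPM in E(z)-KD and 246 ± 13.2 CPM in CBP-KD. CG7530 was at 101 ± 2.32 CPM in WT, 344 ± 17.8 CPM in E(z)-KD and 206 ± 9.48 CPM in CBP-KD, and all of these values are mean ± SD with n = 3. In all of them WT was tightly grouped and the lowest.

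CG14131 was near 0 in WT although it was among the 12 genes with the most reads in the knockdowns. Before cycle 9 it was at 1.37, 0.698 and 0.798 CPM in WT, 358, 361 and 399 CPM in E(z)-KD and 261, 286 and 228 CPM in CBP-KD. At cycle 14 all 3 WT libraries had 0 counts, and the E(z)-KD libraries (34.5, 32.4 and 32.3 CPM) and CBP-KD libraries (12.97, 26.9 and 15.5 CPM) were at least 101-fold and 56.3-fold higher than a floor of 3 counts per library. CG14131 overlaps Pi3K68D on the opposite strand in the annotation.

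**Figure D2:**
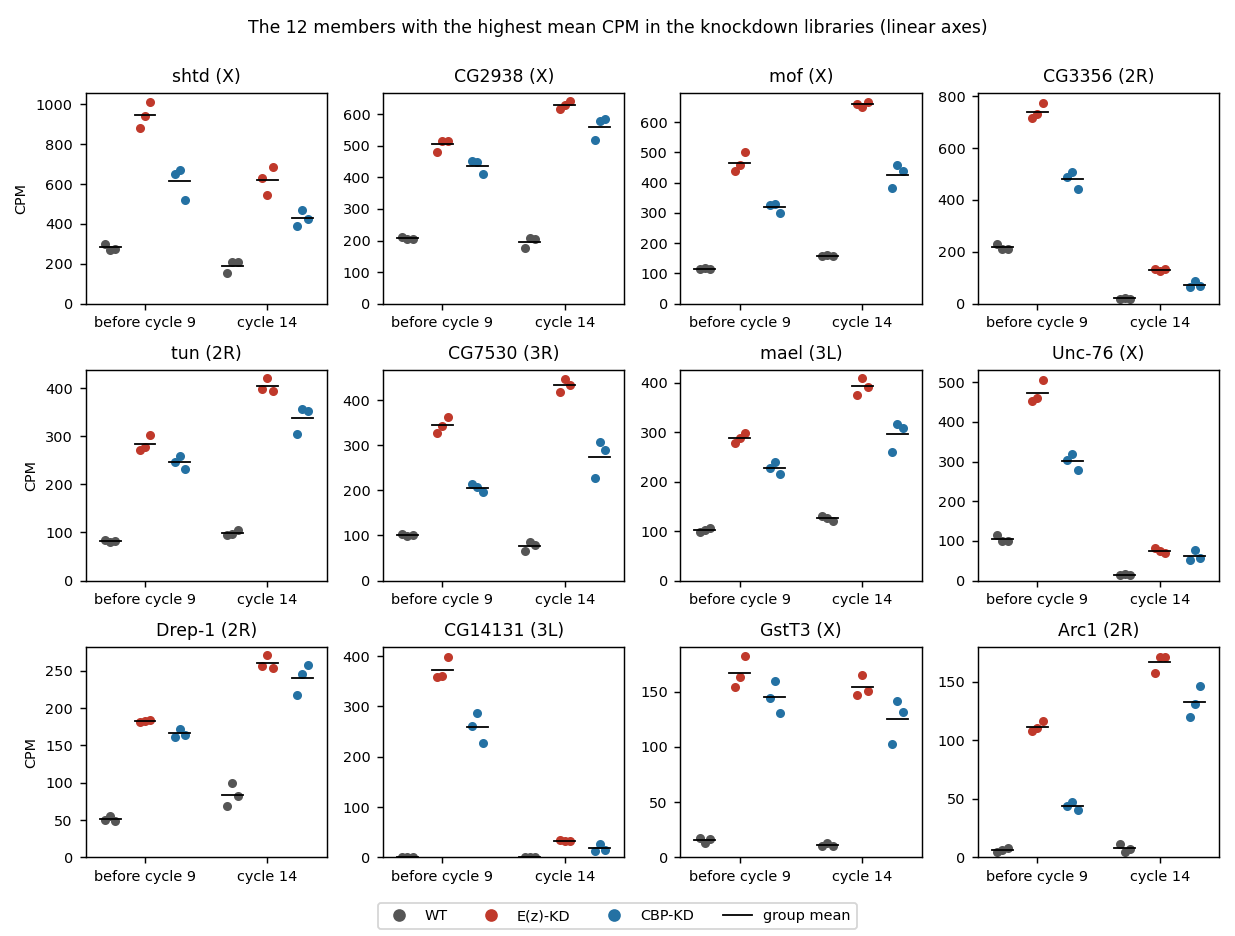
CPM (linear axes from 0) of the 12 genes with the highest mean CPM over the knockdown libraries, with the chromosome arm beside each name, 3 libraries per group as points and the group mean as a line. In every panel the WT points are the lowest of their stage, and in all panels but Unc-76, Drep-1 and GstT3 the CBP-KD points lie between WT and E(z)-KD at both stages.

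Glutathione transferases conjugate glutathione to reactive compounds and gave 4 of the 95 genes, out of 24 Gst genes tested. GstT3 was at 17.1, 13.4 and 16.3 CPM in WT before cycle 9, 155, 164 and 182 CPM in E(z)-KD and 144, 159.8 and 131 CPM in CBP-KD, and its ratios to WT were 10.7 and 9.30. The knockdowns overlapped each other, and neither overlapped WT. GstD3 was at 11.3, 13.4 and 12.8 CPM in WT, 205, 205 and 247 CPM in E(z)-KD and 145, 158 and 132 CPM in CBP-KD before cycle 9, and it was the highest of the 95 per kilobase in both knockdowns, at 294 and 195 CPM per kilobase. At cycle 14 it had fallen to 0, 0.581 and 0.285 CPM in WT, 2.41, 2.70 and 1.76 CPM in E(z)-KD and 1.74, 1.86 and 0.914 CPM in CBP-KD.

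GstE1 was almost silent in WT, with 2, 2 and 2 counts in the 3 libraries before cycle 9 and 1, 9 and 3 at cycle 14. It was at 33.9, 29.8 and 27.7 CPM in E(z)-KD and 37.1, 37.4 and 44.8 CPM in CBP-KD before cycle 9, and at 52.1, 54.9 and 52.4 CPM in E(z)-KD and 69.9, 60.7 and 71.7 CPM in CBP-KD at cycle 14. GstE7, in the same gene cluster on 2R, was at 3.17, 2.33 and 3.59 CPM in WT, 19.4, 20.01 and 17.8 CPM in E(z)-KD and 10.8, 10.9 and 12.1 CPM in CBP-KD before cycle 9. The knockdown with the higher level thus differed within the cluster, CBP-KD for GstE1 and E(z)-KD for GstE7. GstE6, a further gene of the family that was tested, was not in the set and was at 31.9 CPM in WT, 41.6 CPM in E(z)-KD and 35.7 CPM in CBP-KD before cycle 9. GstE8 came closer to the rule, at 7.73 CPM in WT, 23.7 CPM in E(z)-KD and 14.1 CPM in CBP-KD before cycle 9 and at 1.86, 6.51 and 5.39 CPM at cycle 14, and it fell short of 2 times WT in CBP-KD before cycle 9 only.

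Over the Gst list of 24 tested genes, 7 were called higher and 1 lower in E(z)-KD before cycle 9, 5 higher and 1 lower in CBP-KD, 9 higher and 1 lower in E(z)-KD at cycle 14 and 6 higher and 3 lower in CBP-KD. The 4 chosen genes are among those called higher. Of the UDP-glycosyltransferases, which attach sugars to lipophilic compounds, 2 of 10 tested were in the set. CG17322 (Ugt36E1) was at 20.4, 19.8 and 18.1 CPM in WT, 59.8, 62.3 and 58.8 CPM in E(z)-KD and 75.2, 72.7 and 74.5 CPM in CBP-KD before cycle 9. CG30438 (Ugt50B3) was at 1.68, 1.98 and 1.99 CPM in WT, 6.36, 3.59 and 6.13 CPM in E(z)-KD and 4.24, 6.03 and 3.54 CPM in CBP-KD. Over that list, 2 genes were called higher and 2 lower in E(z)-KD before cycle 9 and 3 higher and 2 lower in CBP-KD.

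Of the cytochrome P450 genes 1 of 36 tested was in the set, Cyp12d1-d, a mitochondrial P450 whose near-identical neighbouring copy makes the division of its reads uncertain. It was the only one of the 95 with 0 counts in all 6 WT libraries. It stood at 13.2, 10.5 and 11.7 CPM in E(z)-KD and 2.01, 1.21 and 2.66 CPM in CBP-KD before cycle 9, and at 18.5, 16.7 and 16.3 CPM in E(z)-KD and 3.27, 3.43 and 3.38 CPM in CBP-KD at cycle 14. Against the floor of 3 counts per library these were at least 66.4-fold, 11.1-fold, 52.3-fold and 10.3-fold higher. Of the P450 list, 7 genes were called higher and 2 lower in each knockdown before cycle 9, and 7 higher against 8 lower (E(z)-KD) or 11 lower (CBP-KD) at cycle 14. Of all genes tested on each of X, 2L, 2R, 3L and 3R, 10.9% to 14.1% were called lower in E(z)-KD at cycle 14 and 11.1% to 17.3% in CBP-KD. Summed over the family, P450 RNA at cycle 14 was at 535.5 to 584 CPM in WT, 1043 to 1080.0 CPM in E(z)-KD and 684.5 to 753 CPM in CBP-KD.

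Of the heat shock list 11 genes were tested and 1, Hsp70Bb, was in the set. This inducible chaperone gene was at 0, 0.446 and 0.311 CPM in WT before cycle 9, 2.16, 1.17 and 2.56 CPM in E(z)-KD and 8.69, 7.39 and 12.2 CPM in CBP-KD. At cycle 14 it was at 3.92, 2.26 and 2.12 CPM in WT, 26.4, 26.3 and 21.5 CPM in E(z)-KD and 72.4, 82.3 and 68.6 CPM in CBP-KD. Its reads are shared with other Hsp70 copies. Summed over all 15 heat shock genes before cycle 9, WT and E(z)-KD overlapped and CBP-KD lay above them. The sums were 5572 to 5877 CPM in WT, 5727 to 5843 CPM in E(z)-KD and 6188 to 6278 CPM in CBP-KD. At cycle 14 they were 376 to 386 CPM in WT, 357 to 440 CPM in E(z)-KD and 389 to 540 CPM in CBP-KD. There the knockdowns overlapped each other.

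Besides Cyp12d1-d, 6 genes had at most 3 counts in each of the 6 WT libraries. CG30059 had 2, 0 and 0 counts in WT before cycle 9 and 0 at cycle 14, and it was at 27.9, 28.4 and 24.2 CPM in E(z)-KD and 44.6, 40.7 and 43.5 CPM in CBP-KD before cycle 9. At cycle 14 it was at 19.2, 19.5 and 19.5 CPM in E(z)-KD and 30.6, 34.9 and 30.4 CPM in CBP-KD, at least 59.2-fold and 97.4-fold above the floor. CG30059 overlaps BaraA1 on the opposite strand. CG17470 had 0 counts in WT before cycle 9 and 0, 1 and 0 at cycle 14, against 12.3, 13.2 and 11.6 CPM in E(z)-KD and 8.62, 8.97 and 9.31 CPM in CBP-KD before cycle 9. Neither gene had a WT library near any knockdown library.

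CG32373 had 2, 2 and 1 counts in WT before cycle 9, and was at 6.99, 5.83 and 5.63 CPM in E(z)-KD and 5.03, 4.56 and 6.23 CPM in CBP-KD. The noncoding CR43960, with 0, 2 and 0 counts in WT, was at 4.14, 4.48 and 4.21 CPM in E(z)-KD and 1.95, 2.09 and 1.78 CPM in CBP-KD. CG2750, which lies inside CR43960 on the same strand, was at 2.44, 2.64 and 2.67 CPM in E(z)-KD and 2.16, 1.54 and 1.44 CPM in CBP-KD, and both lie over Ten-a, so the reads of these genes may not be independent. Sdic3, a copy of the Sdic family of sperm dynein genes, was at 2.84, 4.34 and 2.22 CPM in E(z)-KD and 2.88, 3.47 and 3.45 CPM in CBP-KD, from 0 in WT replicates 1 and 2 and 0.165 CPM in replicate 3.

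Arc1 and Arc2 encode capsid-forming proteins that descend from a retrotransposon gag gene, and they lie side by side on 2R. Arc1 was at 4.47, 6.22 and 8.21 CPM in WT before cycle 9, 108, 110.3 and 117 CPM in E(z)-KD and 44.3, 47.5 and 40.5 CPM in CBP-KD, and at cycle 14 at 11.4, 4.94 and 7.22 CPM in WT, 158, 171 and 172 CPM in E(z)-KD and 120.1, 131 and 147 CPM in CBP-KD. Arc2 was at 3.04, 3.78 and 3.82 CPM in WT, 22.6, 25.5 and 29.6 CPM in E(z)-KD and 7.04, 11.1 and 10.2 CPM in CBP-KD before cycle 9. In both genes E(z)-KD was the highest and WT the lowest at each stage. Before cycle 9 the log2 fold change of E(z)-KD over CBP-KD was 1.25 ± 0.14 (SE) for Arc1 (adjusted p = 9.5e-06, edgeR quasi-likelihood) and 1.36 ± 0.23 for Arc2 (adjusted p = 0.00045). At cycle 14 that of Arc2 was 1.53 ± 0.24 (adjusted p = 0.0001, edgeR) and that of Arc1, 0.36 ± 0.13, was under 2-fold. Between the stages Arc1 rose by 1.47 on the log2 scale in CBP-KD, and it was not called in WT or E(z)-KD.

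CrebA, a transcription factor which drives genes of the secretory pathway, was at 4.10, 2.68 and 3.08 CPM in WT before cycle 9, 104, 103 and 124 CPM in E(z)-KD and 83.3, 92.2 and 69.4 CPM in CBP-KD. Xrp1, a bZIP factor of stress responses, was at 2.30, 2.27 and 2.28 CPM in WT, 46.8, 50.1 and 58.3 CPM in E(z)-KD and 28.3, 30.6 and 27.4 CPM in CBP-KD before cycle 9 and at 3.36, 4.07 and 3.14 CPM in WT, 41.8, 36.9 and 45.7 CPM in E(z)-KD and 24.8, 27.1 and 22.3 CPM in CBP-KD at cycle 14. In both genes every CBP-KD library lay between the WT and the E(z)-KD libraries. CG14291 (Sgsh, a lysosomal sulfatase), which starts beside Xrp1 on the other strand, was at 0.310, 0.0582 and 0.114 CPM in WT, 10.1, 11.1 and 9.58 CPM in E(z)-KD and 2.80, 2.94 and 2.62 CPM in CBP-KD before cycle 9.

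E(z)-KD and CBP-KD were compared directly next, a contrast that the choice of genes did not fix in direction. The shRNA lines differ between these groups too, so a difference of line background is part of this contrast. Before cycle 9, 23 of the 95 genes (24.2%) were called higher in E(z)-KD, where 4.71% of all genes tested were, and 1 gene (1.05%) was called lower, where 3.96% of all were. At cycle 14, 27 (28.4%) were called higher, against 10% of all genes, and 2 (2.11%) lower, against 5.42%. The median log2 fold change of E(z)-KD over CBP-KD over the 95 was 0.45 before cycle 9 (all genes tested, -0.10) and 0.57 at cycle 14 (all genes, -0.0028), and 67 and 72 of the 95 lay above 0, against 29.8% and 49.5% of all genes. In 60 of the 95 before cycle 9 and 54 at cycle 14 every E(z)-KD library lay above every CBP-KD library, and the reverse held in 14 at each stage. Over all genes tested, the E(z)-KD libraries lay above in 23.7% and 22.5% and the CBP-KD libraries in 21.4% and 27.4%, against 63.2% and 56.8%, and 14.7% at each stage, of the 95. The genes were chosen from the same libraries, by a limit on the level in each knockdown, so their shares are not those of a random list.

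The gene with the largest difference was Appl, which encodes the fly homologue of the amyloid precursor protein. Before cycle 9 it stood at 0.993, 0.814 and 0.798 CPM in WT, 80.3, 92.2 and 111 CPM in E(z)-KD and 3.45, 4.21 and 3.15 CPM in CBP-KD, and at cycle 14 at 0.320, 0.726 and 0.475 CPM in WT, 47.8, 39.3 and 47.7 CPM in E(z)-KD and 1.67, 2.25 and 2.50 CPM in CBP-KD. E(z)-KD stood far above both others, and CBP-KD was above WT without overlap. The log2 fold change of E(z)-KD over CBP-KD was 4.62 ± 0.18 (SE, adjusted p = 1.9e-11, edgeR quasi-likelihood) before cycle 9 and 4.41 ± 0.18 (adjusted p = 3.3e-11) at cycle 14.

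7B2 encodes a secretory chaperone of the prohormone convertase. It had 0 counts in the WT libraries before cycle 9, when it was at 13.46, 17.02 and 19.6 CPM in E(z)-KD and 1.51, 0.841 and 0.853 CPM in CBP-KD, and at cycle 14 it was at 0.801, 0.653 and 0.475 CPM in WT, 11.5, 9.57 and 10.8 CPM in E(z)-KD and 1.81, 1.86 and 2.87 CPM in CBP-KD. E(z)-KD exceeded CBP-KD by 3.87 ± 0.28 on the log2 scale before cycle 9 (adjusted p = 2.1e-07, edgeR) and by 2.31 ± 0.25 at cycle 14 (adjusted p = 6.4e-06, edgeR). moody, a receptor of the glia that seal the blood-brain barrier, was at 0.621, 1.28 and 0.798 CPM in WT, 10.8, 12.9 and 13.9 CPM in E(z)-KD and 2.95, 3.22 and 1.97 CPM in CBP-KD before cycle 9. moody was the only gene of the set on the list of 19 markers of later neurons, glia, muscle, blood and cuticle. That whole list summed to 1.06 to 1.86 CPM in WT, 11.3 to 14.1 CPM in E(z)-KD and 4.1 to 4.85 CPM in CBP-KD before cycle 9, when moody itself, chosen by the rule, made up nearly all of the E(z)-KD sum. At cycle 14 the list went the other way, with 121 to 149 CPM in WT, 43.9 to 57.2 CPM in E(z)-KD and 20.1 to 39.96 CPM in CBP-KD, and 1 of its genes was at 0 everywhere.

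CG30069 was at 0.497, 0.407 and 0.285 CPM in WT, 13.3, 12.8 and 15.3 CPM in E(z)-KD and 0.287, 1.26 and 1.51 CPM in CBP-KD before cycle 9, where CBP-KD replicate 1 lay within the range of WT. CG14696 was at 0.931, 0.465 and 0.342 CPM in WT, 41.4, 43.9 and 54.2 CPM in E(z)-KD and 17.5, 17.6 and 16.1 CPM in CBP-KD before cycle 9, and its difference between the knockdowns at cycle 14 was 2.53 ± 0.20 on the log2 scale (adjusted p = 6.3e-08, edgeR). Cyp12d1-d differed by 2.38 ± 0.23 at cycle 14 (adjusted p = 5e-06, edgeR). Called higher in E(z)-KD than CBP-KD at both stages were 20 genes of the set. Among them were also the TRP channel pyx, the synaptic genes Liprin-gamma and RhoGAP100F and the metalloprotease Kul. CG14223 and meso18E, which are neighbours on X, were among them too. The share of all genes tested that was called at both stages was not computed, in either direction, so whether these 20 are unusually many was not tested.

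Hsp70Bb was the only gene called lower in E(z)-KD than in CBP-KD at both stages, by -2.34 ± 0.34 on the log2 scale before cycle 9 (adjusted p = 8.8e-05, edgeR) and -1.56 ± 0.29 at cycle 14 (adjusted p = 0.0005, edgeR). The other was CG3726 at cycle 14. It was at 1.92, 1.02 and 1.14 CPM in WT, 30.7, 32.9 and 28.7 CPM in E(z)-KD and 81.1, 82.4 and 80.0 CPM in CBP-KD. E(z)-KD over CBP-KD gave a log2 fold change of -1.37 ± 0.10 (adjusted p = 2.1e-08, edgeR). Before cycle 9 the difference of CG3726 was -0.99 ± 0.10, which fell just short of 2-fold. LM408 (LManII, a lysosomal mannosidase) was also higher in CBP-KD, at 94.5, 104 and 102 CPM against 78.0, 63.2 and 62.4 CPM in E(z)-KD and 0.0621, 0.0582 and 0.171 CPM in WT before cycle 9, although under 2-fold between the knockdowns.

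**Figure D3:**
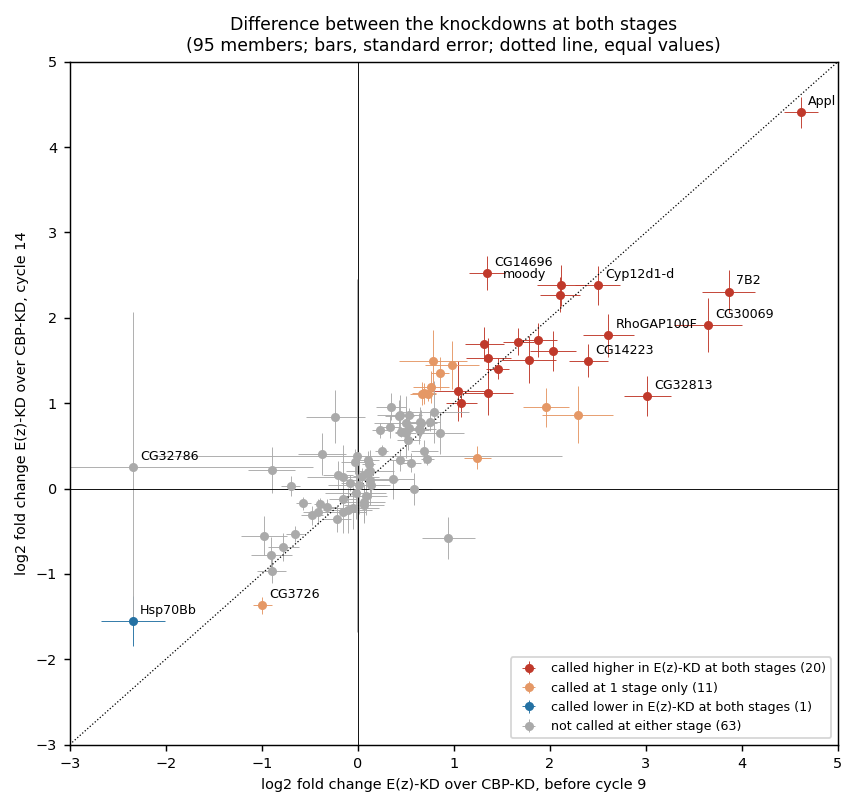
Log2 fold change of E(z)-KD over CBP-KD before cycle 9 (x axis) and at cycle 14 (y axis) for each of the 95 genes, with standard errors as bars and colours for the calls. Most genes lie near the line of equal values and above 0 on both axes, with Appl at 4.62 and 4.41 and Hsp70Bb at -2.34 and -1.56.

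The difference between the knockdowns was much the same at both stages, although no library is shared between the stages. Across the 95 genes the correlation of the log2 fold change before cycle 9 with that at cycle 14 was r = 0.848 (Spearman's rho 0.864). Across the 8372 other genes tested it was 0.183 (rho 0.334). The sign agreed in 80 of the 95 and in 5299 of the 8372. Genes are not independent replicates, the 2 stages share the fly lines, and a gene was chosen only if it was high at both stages, so these are descriptions. Among the 81 genes with whole counts in every library r was 0.851. The rise of CBP-KD over WT was a median 0.642 of the rise of E(z)-KD before cycle 9 (quartiles 0.412 and 0.965) and 0.617 at cycle 14 (quartiles 0.395 and 1.00). CBP-KD lay between WT and E(z)-KD in 72 of the 95 by group means before cycle 9 and in 71 at cycle 14. The choice made WT the lowest mean in every gene, so these are simply the genes with a higher mean in E(z)-KD than in CBP-KD. The share of all genes with that order of means was not computed.

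The stages were then compared within each genotype. In WT, 19 of the 95 genes (20.0%) were called higher at cycle 14, against 21.0% of all genes tested, and 15 (15.8%) lower, against 29.8%. In E(z)-KD, 3 (3.16%) were called higher, against 16.1% of all, and 14 (14.7%) lower, against 26.5%. In CBP-KD, 8 (8.42%) were called higher, against 16.1%, and 14 (14.7%) lower, against 27.6%. The share of the 95 called higher was thus near that of all genes in WT and below it in the knockdowns. A gene entered the set only with at least 1 CPM at both stages in both knockdowns, which leaves out genes near 0 at 1 stage there. The median log2 stage change of the 95 was 0.30 in WT (all genes tested, 0.13), 0.13 in E(z)-KD (all genes, 0.24) and 0.11 in CBP-KD (all genes, 0.21), and 54 of the 95 were called in no genotype. For this and the other counts of calls taken over several genotypes below, the share of all genes tested was not computed.

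The largest increases in WT were those of LM408 and CG42342. In WT LM408 went from 0.0621, 0.0582 and 0.171 CPM to 19.7, 16.3 and 18.6 CPM, a log2 change of 7.43 ± 0.30 (adjusted p = 4.5e-13, edgeR quasi-likelihood), while in E(z)-KD it was at 78.0, 63.2 and 62.4 CPM before cycle 9 and 88.3, 114 and 88.7 CPM at cycle 14. CG42342 went in WT from 0.124, 0.116 and 0.171 CPM to 21.3, 17.3 and 16.6 CPM (6.99 ± 0.56, adjusted p = 4.7e-09, edgeR), and in E(z)-KD from 125, 131 and 166 to 140.3, 140.4 and 162 CPM. Each rests on 1 to 3 counts per WT library before cycle 9. In both, the knockdowns already had before cycle 9 a level above that of WT at cycle 14. Called higher in WT and in neither knockdown were 14 genes, namely 7B2, CG10916, CG14223, CG14291, CG14964, CG42342, Dh44-R2, Dscam4, GstE1, Kul, LM408, pyx, Tsp26A and zormin. Whether their stage change differed between WT and the knockdowns was not tested, since that difference is made of the comparisons that chose the genes.

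**Figure D4:**
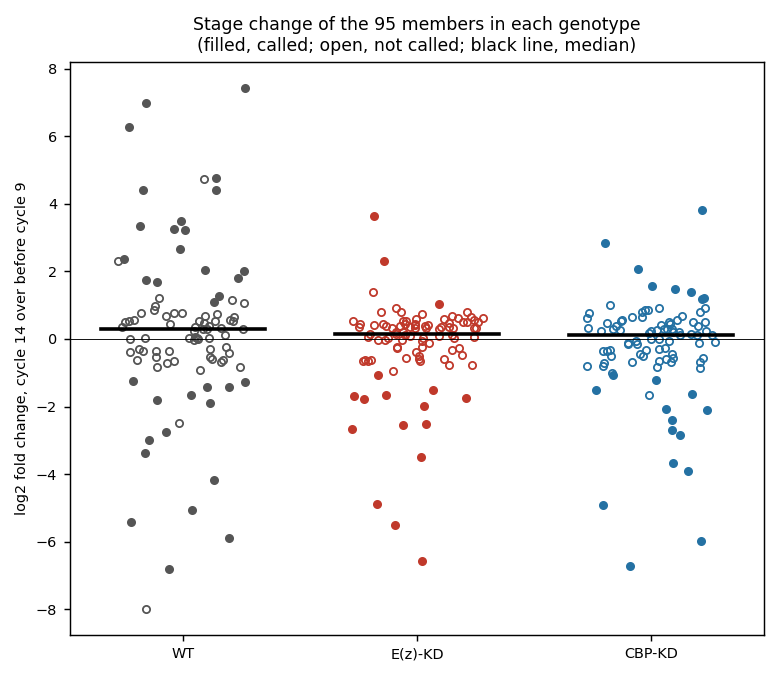
Log2 fold change of cycle 14 over before cycle 9 of the 95 genes, 1 column of points for each genotype, with filled points for genes called by the edgeR test, open points for the others and the median as a black line. The medians are 0.30, 0.13 and 0.11, and the points of WT spread upwards to 7.43 while those of E(z)-KD reach 3.64.

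Called higher at cycle 14 in all 3 genotypes were 2 genes. CG8908 rose in WT from 0.993, 0.756 and 0.627 CPM to 9.77, 7.41 and 9.12 CPM, by 2.30 ± 0.26 on the log2 scale in E(z)-KD and by 3.82 ± 0.28 in CBP-KD (adjusted p = 4.3e-07 and 2.1e-09, edgeR). Hsp70Bb rose by 3.64 ± 0.34 in E(z)-KD and 2.85 ± 0.31 for CBP-KD (adjusted p = 3.7e-08 and 2.6e-07, edgeR). CG6310 was called higher in both knockdowns and not in WT. It was at 1.24, 0.698 and 0.456 CPM in WT, 2.10, 1.97 and 1.78 CPM in E(z)-KD and 1.80, 1.89 and 1.97 CPM in CBP-KD before cycle 9, and at 0.801, 1.09 and 1.43 CPM in WT, 4.25, 3.76 and 3.93 CPM in E(z)-KD and 3.98, 5.09 and 5.18 CPM in CBP-KD at cycle 14. CG6310 lies on 3L (chromosome 3L, 11069043 to 11069864, minus strand), the arm that carries the attP2 landing site of the transgenes.

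Lower at cycle 14 in all 3 genotypes were 11 genes, among them AcCoAS (acetyl-CoA synthetase), CG3523 (FASN1, fatty acid synthase), GstD3, Unc-76, CG3356, CG14131, CG7322 and CG7386. In single genotypes 26.5% to 29.8% of all genes tested were called lower, so a fall is not particular to the set. CG7322 fell in WT from 10.8, 9.89 and 10.3 to 0.160, 0.0726 and 0.475 CPM, in E(z)-KD from 248, 260.0 and 291 to 6.22, 5.69 and 5.83 CPM and in CBP-KD from 145, 152 and 116 to 2.10, 2.85 and 2.07 CPM. The log2 changes were -5.41 ± 0.32, -5.49 ± 0.13 and -5.98 ± 0.14 (adjusted p = 9e-11, 9.7e-16 and 1.2e-15, edgeR). CG7386 changed by -5.88 ± 0.26, -4.89 ± 0.18 and -4.92 ± 0.18 (adjusted p = 1.3e-12, 2.4e-13 and 1.9e-13, edgeR), and GstD3 by -5.06 ± 0.33, -6.56 ± 0.17 and -6.71 ± 0.18 (adjusted p = 2.3e-10, 2.4e-15 and 3.2e-15, edgeR). Each of these RNAs was called lower at cycle 14 in every genotype, and was higher in the knockdowns than in WT at both stages. The stage change differed between E(z)-KD and CBP-KD for 6 of the 95, of which 1 was called higher (4.61% of all genes tested were) and 5 lower (1.94% of all).

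Position on the chromosomes was not used to choose the genes. On BDGP6.54, the dm6 assembly, 28 of the 95 (29.5%) lie on X, where 17.4% of the genes tested and placed lie. The shares were 14.7% on 2L (17.8% of genes tested), 21.1% on 2R (20.5%), 17.9% on 3L (19.5%) and 16.8% on 3R (23.9%), with none on chromosome 4. The 51 genes lower in both knockdowns were placed otherwise, with 9.8% on X, 31.4% on 2L and 39.2% on 2R. On X, 10.5% of all genes tested were called higher in E(z)-KD before cycle 9, against 5.96% to 7.61% on the other large arms. In CBP-KD before cycle 9 the value was 7.98% on X and 6.96% to 7.93% on the other large arms. At cycle 14 it was 14.7% on X and 9.61% to 11.6% elsewhere on the large arms for E(z)-KD, and 13.96% and 10.4% to 13.3% for CBP-KD.

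**Figure D5:**
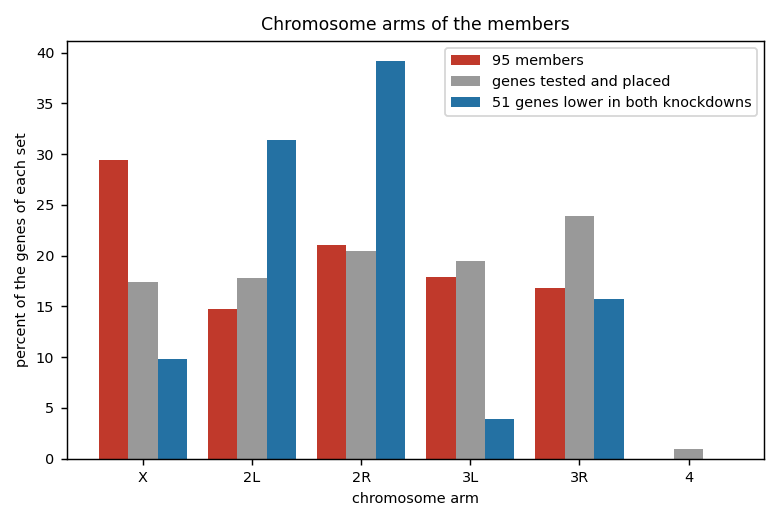
Share in percent of the 95 genes, of all genes tested and placed and of the 51 genes lower in both knockdowns that lie on each chromosome arm (bars from 0). X holds 29.5% of the 95 and 17.4% of the genes tested, and 2R holds 39.2% of the 51.

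Genes of the set lay beside each other in 9 pairs with starts within 50 kb, 18 genes in all. How often genes tested outside the set lie so close was not computed, so whether the set is clustered was not tested. On 2R these were Arc1 (chromosome 2R, 14357927 to 14360297, minus strand) with Arc2 (chromosome 2R, 14361924 to 14362825, plus strand), GstE1 (chromosome 2R, 18398393 to 18399223, plus strand) with GstE7 (chromosome 2R, 18406924 to 18407688, plus strand), and Tina-1 with CG15861. On 3R the pair was CG14291 (chromosome 3R, 18911053 to 18912922, minus strand) and Xrp1 (chromosome 3R, 18914968 to 18926989, plus strand). On X there were CG3176 with Appl (chromosome X, 530501 to 579044, plus strand), moody with Unc-76, CG2938 with CG32786, mof (chromosome X, 5873840 to 5876853, minus strand) with CG3726, and CG14223 with meso18E. Members of a pair need not share a pattern. mof was higher in E(z)-KD than in CBP-KD at both stages, by 0.45 and 0.66 on the log2 scale, and CG3726 the reverse, whereas Arc1 and Arc2, CG14291 and Xrp1, moody and Unc-76, and CG14223 and meso18E were all highest in E(z)-KD.

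Genes near those of the set were called higher at shares close to, or below, those of all genes tested. Of 880 other tested genes with a start within 50 kb of one of the 95, 7.61% were called higher in E(z)-KD before cycle 9 and 5.8% in CBP-KD (7.44% and 7.51% of all genes tested), and at cycle 14 10.1% and 9.66% (11.3% and 12.0%). Of the 95, 52 overlap another annotated gene, 45 of them 1 on the opposite strand. The share of all genes tested that overlap another gene was not computed. The library kit marks strand, and whether the counting used it is not given in the sources used here, so reads of overlapping genes cannot be told apart with certainty.

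The 95 are 1.12% of the genes tested, so a short list would hold few or none of them at that share, and nothing is read from the lists that held none. None of the 18 Polycomb target genes, the 51 germ layer markers, the 5 pole cell RNAs, the 23 histone genes tested, the 22 chemosensory genes tested or the 4 cuticle genes tested was in the set. Of the 16 Polycomb targets tested, 1 was called higher and 1 lower in E(z)-KD and 5 higher in CBP-KD before cycle 9, and at cycle 14 1 was called higher and 13 lower in E(z)-KD and 14 lower in CBP-KD. Of all genes tested on each of the large arms, 10.9% to 14.1% were called lower in E(z)-KD at cycle 14 and 11.1% to 17.3% in CBP-KD. The antimicrobial peptide and immunity genes summed to at most 1.23 CPM in any library. Of the noncoding genes 6 of 294 tested were in the set (CR43463, CR43836, CR43960, CR44779, CR45175 and the U2 copy), and 89 of the 95 are protein coding.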

How the data were processed

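Bulk RNA-seq of hand-staged embryos was analysed for 18 libraries, 3 biological replicates of each group; the labels call the RNA nuclear and the titles total. The authors mapped reads to dm6 with STAR and kept reads that fit many positions. The values the authors deposited are estimated counts per gene, not normalized. The annotation, strand setting and the way counts were divided are not given in the sources used here, and 2.9% of values lay more than 0.01 from a whole number. ERCC spike-ins were added and were not used.

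CPM was computed from the column sums (6243486 to 18262569 counts). For tests, counts were rounded and fitted with edgeR 4.0.16 (R 4.3.3): TMM, filterByExpr, 1 mean per group over all 18 libraries, quasi-likelihood F tests, called at a Benjamini-Hochberg adjusted p under 0.05 over the 8467 genes tested and a log2 fold change of at least 1. All 95 genes passed the filter. Of the gene names, 12504 matched Ensembl 115 (BDGP6.54) directly, 3992 by an older name, and 184 did not match. Alternatives were DESeq2 1.42.0, library size scaling, other filters and limits, a replicate block and leaving out libraries. The genes, lists and comparisons were chosen with earlier results of these data known. Genes were named by rule: targets, list members, the 12 with most reads, the 6 with most reads among those nearly absent from WT, the 3 largest calls each way in each test with at least 5 CPM, those nearest the limit, and neighbour pairs. CG32786, snRNA:U2:38ABa, RhoGAP100F, CrebA, CG6310, CG2750, GstE6, GstE8, bw, ry and the further genes listed by call or position were named after their values were seen. Counting error only is covered by the floor of 3 counts.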

Additional observations from a re-analysis of the deposited data

Results flagged for a closer look

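The change from before cycle 9 to cycle 14 differed between E(z)-KD and CBP-KD for 6 of the 95 genes (edgeR quasi-likelihood test of the difference of the stage changes, Benjamini-Hochberg adjusted over all genes tested, n = 3 libraries per group). CG32813 had a stage change of -1.65 (log2) in E(z)-KD and 0.28 for CBP-KD, a difference of -1.93 (adjusted p = 0.00088, edgeR). Its levels went from 11.1 to 11.7 CPM to 2.88 to 4.17 CPM in E(z)-KD and from 1.18 to 1.51 CPM to 1.34 to 2.46 CPM in CBP-KD. For CG30069 the difference was -1.73 (adjusted p = 0.017, edgeR), from changes of 0.35 (E(z)-KD) and 2.08 (CBP-KD). For 7B2 it was -1.56 (adjusted p = 0.0091, edgeR), from -0.65 and 0.91. For CG8908 it was -1.52 (adjusted p = 0.0098, edgeR), from 2.30 and 3.82, although CG8908 rose in both. rho-5 stood at the edge of the threshold with a difference of -1.01 (adjusted p = 0.04999, edgeR), and it lost the call in 12 of the alternatives. In the other direction CG14696 changed by -0.03 (E(z)-KD) and -1.21 in CBP-KD, a difference of 1.18 (adjusted p = 0.0061, edgeR). The cause of these differences was not tested.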

How the results depend on the processing

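Against 95 genes by the rule, 101 were found with TMM-scaled CPM (94 shared), 115 with at least 0.5 CPM, 181 with a limit of 1.5 times WT, 54 with 3 times, 59 with at least 5 CPM, 57 where the lowest knockdown library had to be 2 times the highest WT library, 93 to 99 with 1 replicate number left out, and 98 without the shallow library WT cycle 14 replicate 1, the last setting chosen after seeing the data. Pairs within 10 kb held 10 genes and runs within 200 kb held 33, against 18 within 50 kb. Dropping the fold limit gave more calls, and asking for 10 counts in every library gave fewer, since only 47 of the 95 were then tested. Without the fold limit, E(z)-KD against CBP-KD gave 49 higher and 14 lower before cycle 9 and 53 and 8 at cycle 14. The stage change gave 32 higher and 25 lower in WT, 30 and 28 in E(z)-KD, 31 and 31 for CBP-KD, and its difference between the knockdowns 5 and 8. With 10 counts in every library the same counts were 8 and 0 before cycle 9, 9 and 1 at cycle 14, 3 and 8 in WT, 1 and 6 in E(z)-KD, 4 and 6 for CBP-KD, and 0 and 2 for the difference. The difference of stage changes gave 8 lower with library size scaling, and 2 higher with no filter, with only the groups compared and with DESeq2. Among the genes with whole counts in every library, a choice made after seeing the data, the lower calls of E(z)-KD against CBP-KD were 0 before cycle 9 and 1 at cycle 14, and the higher calls 20 and 25. Leaving out 1 library at a time gave 21 to 23 higher and 2 to 2 lower before cycle 9, 25 to 29 and 2 to 3 at cycle 14, 18 to 20 and 14 to 16 in WT, 2 to 3 and 13 to 15 in E(z)-KD, 7 to 10 and 14 to 16 for CBP-KD, and 1 to 3 and 4 to 7 for the difference (3 higher without E(z)-KD cycle 14 replicate 2, 2 higher without E(z)-KD cycle 14 replicate 3 or CBP-KD cycle 14 replicate 2), with no call changing sign. The 2 lower calls before cycle 9, against 1 with all libraries, came whichever of the 6 libraries was left out, and the cause of these changes was not tested. With the replicate block, 22 higher and 1 lower were called before cycle 9, 27 and 2 at cycle 14, 19 and 15 in WT, 3 and 14 in E(z)-KD, 8 and 15 for CBP-KD, and 1 and 4 for the difference. Same-numbered replicates are not shown to be paired, since the correlations of their deviations ran from -0.184 to 0.188. Of 1663 values for the 132 single calls of a gene under an alternative, 1606 stayed past the threshold, 57 fell short and 0 reversed. Of those that fell short, rho-5 (difference of stage changes) made 12 and CR43960 (E(z)-KD against CBP-KD before cycle 9) 8. The 1606 include the setting without a fold limit, which cannot lose a call. Genes that an alternative filter left untested were not counted as falling short. Genes with few WT counts limit the precision of the WT stage change, and 14 of the 95 had at most 3 counts in every WT library before cycle 9. Relative to TMM, the DESeq2 size factors shifted the scale of the log2 fold changes by 0.25 in the WT stage change. The shift was 0.10 in the stage change of E(z)-KD, 0.13 in that of CBP-KD and -0.18 in both comparisons with WT at cycle 14. Library size scaling shifted it by 0.13 in the CBP-KD stage change and -0.13 in the difference of stage changes. In CBP-KD against WT before cycle 9 that shift was -0.11. All these shifts were computed from the scaling factors alone, not from the fold changes of genes.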

Other observations

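Genes that fly stocks are commonly marked with differed between the groups in both directions. yellow (y), a cuticle pigment gene, had 0 counts in the 3 WT libraries before cycle 9, where it was at 0.511, 1.02 and 0.223 CPM in E(z)-KD and 0.216, 0.491 and 0.787 CPM in CBP-KD. At cycle 14 y was at 1.44, 2.18 and 1.81 CPM in WT, 163, 149.8 and 138 CPM in E(z)-KD and 6.08, 11.8 and 11.04 CPM in CBP-KD. white (w), an eye pigment transporter, was at 0.683, 0.989 and 0.456 CPM in WT before cycle 9, 2.22, 1.70 and 2.40 CPM in E(z)-KD and 1.01, 1.47 and 1.18 CPM in CBP-KD. vermilion (v), an eye pigment enzyme, had 0 counts in WT and in CBP-KD before cycle 9 and was at 0.398, 0.543 and 0.334 CPM in E(z)-KD. brown (bw), an eye pigment transporter, averaged 0.0608 CPM in WT, 2.904 CPM in E(z)-KD and 0.477 CPM in CBP-KD before cycle 9, and 0.197, 2.08 and 1.83 CPM at cycle 14. rosy (ry), xanthine dehydrogenase, went the other way at cycle 14, with means of 71.0 CPM in WT, 18.3 CPM in E(z)-KD and 3.40 CPM in CBP-KD (n = 3 each). Of the 6 such genes tested, 3 were called higher in E(z)-KD and 4 higher for CBP-KD before cycle 9 (edgeR quasi-likelihood), and at cycle 14 E(z)-KD had 3 higher and 1 lower and CBP-KD 2 higher and 3 lower. None of them was among the 95. Their part in the differences from WT was not tested.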
